A study of Homo sapiens with 18 samples.

Results

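Here 10 genes of the ATF4 pathway and the unfolded protein response were followed through untransformed and Src-transformed breast epithelial cells with and without triptolide (TPL). The members, ATF4, DDIT3, ASNS, TRIB3, CHAC1, HSPA5, XBP1, HERPUD1, SESN2 and ATF6, were taken by Entrez gene ID from the expression tables and are 10 of 23604 genes listed in at least 1 RNA-Seq library. RNAPII (RNA polymerase II) peaks over their transcription start sites (TSSs) were taken from 4 ChIP-Seq peak lists. The cells were MCF10A-ErSrc, an established non-tumorigenic human breast epithelial line whose v-Src is fused to the ligand-binding part of the oestrogen receptor, so that tamoxifen switches it on in every group called TAM. The 4 groups were NT cells (not transformed) with DMSO, NT cells with TPL, TAM cells with DMSO and TAM cells with TPL. TPL, a diterpene from a medicinal vine that binds the XPB helicase of TFIIH and blocks transcription initiation, was given for 4 h at the dose the labels write as TPL-125nM. Each group had 2 RNA-Seq libraries of poly-A RNA, named replicates 1 and 2.

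Unfolded proteins in the endoplasmic reticulum (ER) are sensed by IRE1 (gene ERN1), PERK (gene EIF2AK3) and ATF6. PERK and other kinases phosphorylate eIF2, which slows most translation but favours translation of the transcription factor ATF4. IRE1 splices the XBP1 mRNA, and cleaved ATF6 and spliced XBP1 switch on ER chaperone genes, while ATF4 switches on genes of amino acid supply and, with DDIT3 (CHOP), genes of stress and cell death. The tables measured mRNA per gene, so neither ATF4 protein, ATF6 cleavage nor XBP1 splicing was measured.

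The RNA-Seq libraries held between 7461309 and 8349448 estimated counts, of which the members took between 0.126% and 0.205%. All 9 breast epithelial markers examined were above 1 FPKM in both DMSO groups and 8 of 9 with TPL. Their summed FPKM, mostly keratins, lay between 13631 and 15376 in NT cells, 10033 and 12294 in NT cells with TPL, 3720 and 3962 in TAM cells, and 2188 and 2357 in TAM cells with TPL. Of 7 markers of other cell types, 1 to 3 were above 1 FPKM in both libraries of a group, and their sum, most of it ESR1 in NT cells (the line carries an oestrogen receptor fusion), lay between 201 and 250 FPKM in NT cells and between 39.5 and 42.6 in TAM cells with TPL. These marker levels moved with both tamoxifen and TPL, and their part in the member results was not tested. In bulk cultures, fewer cells expressing a gene and less of its RNA per cell cannot be told apart. All values were relative to the library, so a fall shared by all RNAs would not show in them.

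The promoters of the members showed 2 sequence elements that the ATF4 and ER stress literature assigns to these pathways. The bases before the main TSS are given for 7 members, ATF4 and DDIT3 as factors of the pathway and those that hold one of the elements, from the GRCh37 (hg19) sequence, 5′ to 3′ on the transcribed strand, ending 1 base before the TSS. Capitals mark the CCAAT box on either strand, the TATA box TATAAA, the cyclic AMP half-site TGACGT, the C/EBP-ATF response element TGATGNAA on either strand, and the ER stress response element, CCAAT followed after 9 bases by CCACG, which therefore overlaps a CCAAT.
ATF4 chr22:39916467-39916566 (+ strand): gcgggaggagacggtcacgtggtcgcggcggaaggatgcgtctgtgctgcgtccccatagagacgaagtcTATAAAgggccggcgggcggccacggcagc
DDIT3 chr12:57914298-57914417 (- strand): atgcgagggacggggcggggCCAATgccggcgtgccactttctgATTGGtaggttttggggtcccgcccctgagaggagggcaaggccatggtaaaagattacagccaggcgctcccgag
ASNS chr7:97501721-97501840 (- strand): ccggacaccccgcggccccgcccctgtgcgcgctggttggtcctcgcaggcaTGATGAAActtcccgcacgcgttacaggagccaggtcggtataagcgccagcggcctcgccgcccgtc
CHAC1 chr15:41245419-41245668 (+ strand): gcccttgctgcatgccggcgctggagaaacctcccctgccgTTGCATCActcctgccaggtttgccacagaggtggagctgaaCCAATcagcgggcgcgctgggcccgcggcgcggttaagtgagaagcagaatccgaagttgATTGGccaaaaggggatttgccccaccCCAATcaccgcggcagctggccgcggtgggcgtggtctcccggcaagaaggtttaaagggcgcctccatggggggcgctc
HSPA5 chr9:128003623-128003742 (- strand): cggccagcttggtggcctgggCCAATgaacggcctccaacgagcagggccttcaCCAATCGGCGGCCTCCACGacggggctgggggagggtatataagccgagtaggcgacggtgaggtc
XBP1 chr22:29196558-29196677 (- strand): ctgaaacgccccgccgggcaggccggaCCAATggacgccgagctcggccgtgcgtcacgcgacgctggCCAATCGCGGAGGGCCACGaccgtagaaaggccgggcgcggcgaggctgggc
HERPUD1 chr16:56965804-56966053 (+ strand): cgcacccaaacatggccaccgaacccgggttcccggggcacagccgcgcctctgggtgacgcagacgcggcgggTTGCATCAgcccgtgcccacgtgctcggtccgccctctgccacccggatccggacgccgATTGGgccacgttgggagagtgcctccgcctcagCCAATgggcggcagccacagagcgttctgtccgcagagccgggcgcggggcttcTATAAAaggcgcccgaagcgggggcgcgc

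Both strands of the 250 bases before the main TSS were searched in 13415 promoters. The C/EBP-ATF response element was found in ASNS (TGATGAAA, 68 to 61 bases before the TSS), CHAC1 and HERPUD1 (TTGCATCA, the reverse strand, 209 to 202 and 176 to 169 bases before), which are 3 of 10 members against 1.4% of all promoters. The ER stress response element was found in HSPA5 (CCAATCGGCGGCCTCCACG, 66 to 48 bases before) and XBP1 (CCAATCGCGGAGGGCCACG, 52 to 34 bases before), against 0.127% of all promoters, or 17. The members were chosen as genes of the pathways to which the literature assigns these elements, so the shares do not test for an excess. No other form of either element and no bases farther upstream were searched, so members without these forms may hold an element elsewhere or in another form. TGACGT was found in HSPA5 and ATF6 (10.1% of all promoters), TATAAA in ATF4 and HERPUD1 (5.78%) and CCAAT in 6 members (34.6%). Both members with this form of the ER stress element had an RNAPII peak over the TSS in all 4 groups. With TPL the XBP1 RNA fell in both states, while the HSPA5 RNA rose in TAM cells and did not pass the test in NT cells, as described below.

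With TPL, the ATF4 mRNA and those of its targets ASNS and SESN2 rose in both states, and 2 members, TRIB3 and XBP1, fell to between 0.154 and 0.38 of their level. At an adjusted p of at most 0.05 (edgeR's quasi-likelihood test over 16948 genes, Benjamini-Hochberg), 4 of 10 members rose and 2 fell in NT cells, where 17.2% of all genes rose and 19.8% fell. In TAM cells 6 members rose and 2 fell, where 14.3% of all genes rose and 18.6% fell. The median log2 fold change of the members was 0.51 in NT cells and 0.71 in TAM cells, and that of all genes 0.09 and 0.05. Under the stricter thresholds of the study, a p adjusted to 0.001 or less and a log2 change of 1.2 or more in size, TRIB3 and XBP1 alone passed in NT cells, where 1.22% of all genes were higher and 2.71% lower, and no member passed in TAM cells, where 0.844% were higher and 2.04% lower. The study's thresholds were applied here to the edgeR p-values, not to its own test. The strict counts therefore do not show which members the study called. The 2 TPL comparisons share no library.

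Scaling each library to equal GAPDH shifted the all-gene median log2 fold change by -0.34 in NT and -0.11 in TAM cells, and upper quartile scaling moved it by 0.22 and 0.24. The count of members higher and lower was then 2 and 2 (GAPDH) or 7 and 2 (upper quartile) in NT cells, and 3 and 2 or 6 and 2 in TAM cells. Of all 16948 genes, 1358 were higher and 4381 lower in NT cells with GAPDH scaling, and 4088 and 2625 with upper quartile scaling. In TAM cells the counts of all genes were 1626 and 3056 with GAPDH scaling, and 3613 and 2298 with upper quartile scaling. Scaling moves all genes by nearly the same amount, so the members' median relative to that of all genes could hardly change. It was between 0.40 and 0.43 in NT cells and 0.66 in TAM cells over all 5 scalings.

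**Figure D1:**
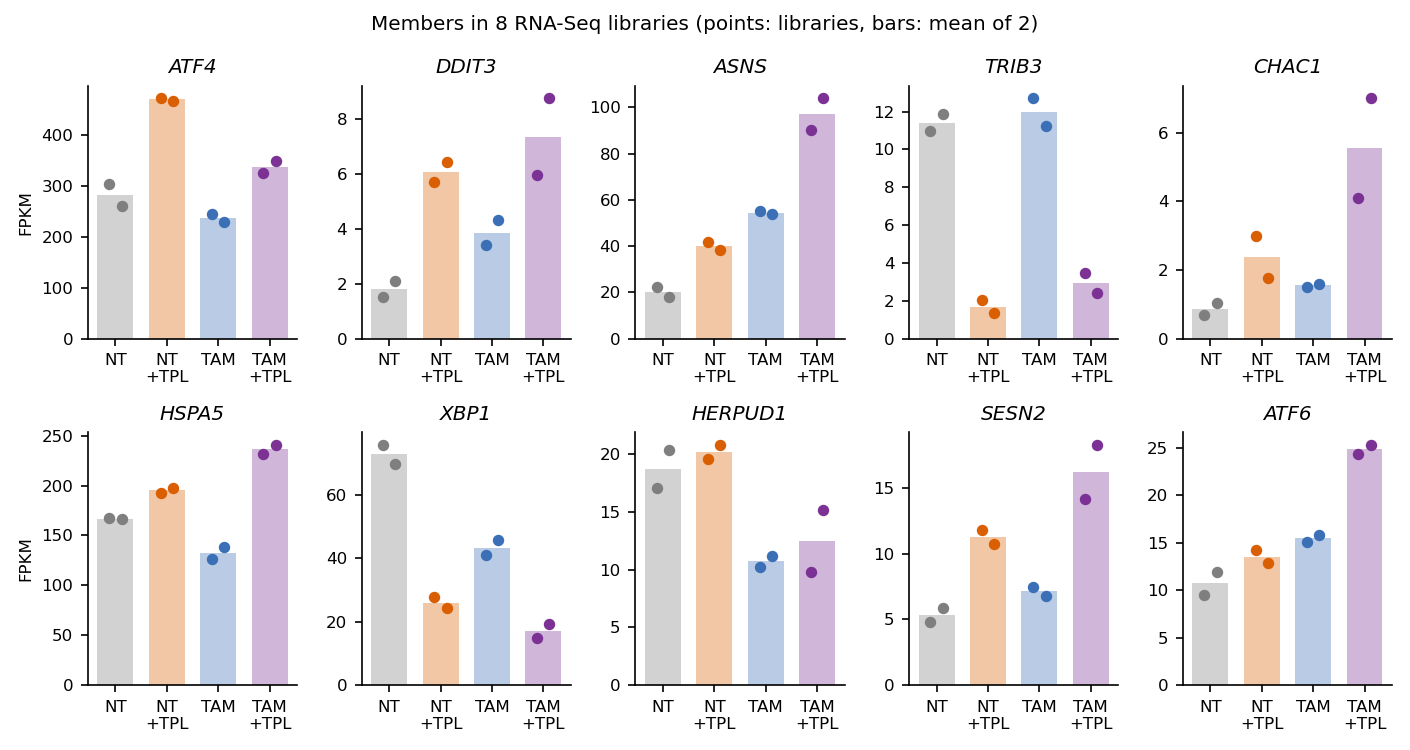
FPKM (fragments scaled to transcript length and to the mapped fragments of the library) of each member in the 8 RNA-Seq libraries: points are libraries, bars the mean of 2, and each vertical axis starts at 0. Libraries with TPL lie above those with DMSO in both states for ATF4, ASNS, SESN2, DDIT3, CHAC1, HSPA5 and ATF6 and below them for TRIB3 and XBP1, while HERPUD1 overlaps.

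**Figure D2:**
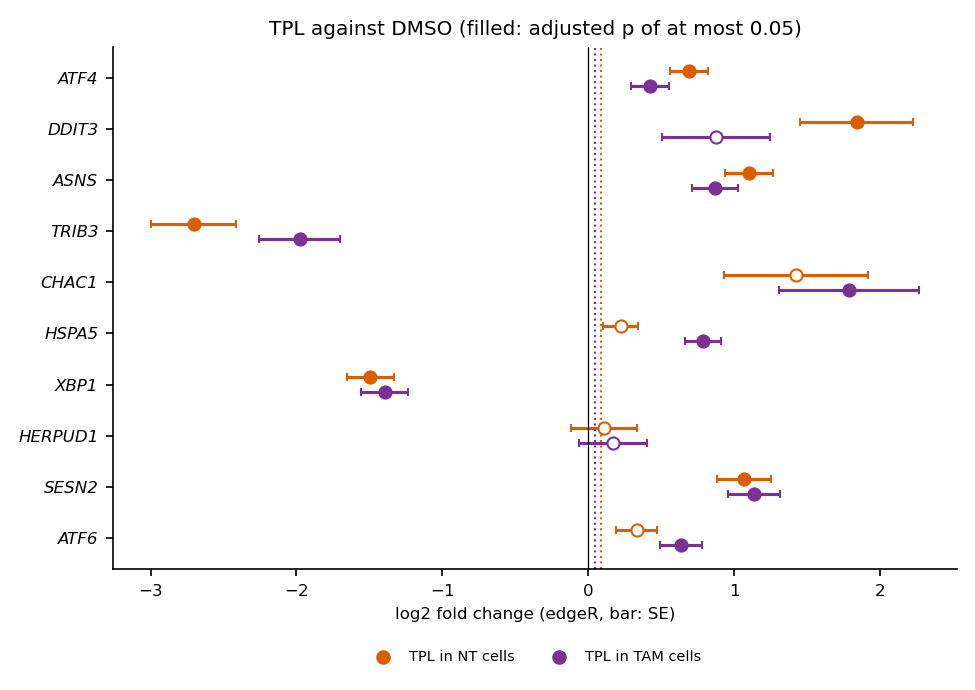
Log2 fold change with TPL against DMSO (horizontal axis) for each member in NT and TAM cells, with its SE as bar; filled points passed an adjusted p of at most 0.05, and dotted lines mark the median of all genes. TRIB3 and XBP1 lie to the left of 0, HERPUD1 lies near it and the other 7 lie to the right in both states.

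ATF4, which codes for the transcription factor of the integrated stress response, lies at chr22:39915700-39918688 and was the most abundant member in every group. Its FPKM was 304 and 261 in NT cells, 472 and 467 in NT cells with TPL, 245 and 229 in TAM cells, and 325 and 349 in TAM cells with TPL. The TPL libraries were above the DMSO libraries in each state without overlap. It rose 1.61-fold in NT cells (log2 fold change of 0.69 with an SE of 0.132, adjusted p = 0.00791) and 1.34-fold in TAM cells (0.42, SE 0.131, adjusted p = 0.0467). The call in NT cells was lost without NT replicate 2 (adjusted p = 0.0654) and with GAPDH scaling (adjusted p = 0.149). The call in TAM cells was lost with GAPDH scaling (adjusted p = 0.199), without a filter on low counts (adjusted p = 0.095) and without any 1 of the NT, TAM or TAM with TPL libraries (adjusted p between 0.0667 and 0.223).

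DDIT3, also called CHOP, is a bZIP factor that partners with ATF4 and promotes cell death. It lies at chr12:57910371-57915520 on the minus strand and was scarce, with 12 to 72 counts in a library. Its FPKM was 1.50 and 2.08 in NT cells and 5.70 and 6.43 with TPL, a rise of 3.58-fold (log2 fold change of 1.84 with an SE of 0.387, adjusted p = 0.0113), lost without NT replicate 1 (adjusted p = 0.0624). In TAM cells it was 3.42 and 4.31 with DMSO and 5.95 and 8.77 with TPL, without overlap but not past the threshold (log2 fold change of 0.88 with an SE of 0.369, adjusted p = 0.110; past it in 3 of 12 alternative fits).

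XBP1, at chr22:29190543-29196585 on the minus strand, codes for the factor made active by IRE1 splicing. Its FPKM was 75.9 and 69.7 in NT cells and 27.6 and 24.4 with TPL. TAM cells had 41.1 and 45.7, and 14.9 and 19.2 with TPL. All TPL libraries were lower than all DMSO libraries. It was lower 2.81-fold in NT cells (log2 fold change of -1.49 with an SE of 0.161, adjusted p = 0.000961) and 2.63-fold in TAM cells (-1.396, SE 0.163, adjusted p = 0.0014), and both calls held at an adjusted p of at most 0.05 in all 12 alternative fits and all 8 fits without 1 library. The values are for the whole gene and do not separate spliced from unspliced mRNA.

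ATF6, the membrane-bound sensor that is itself cut to a transcription factor, lies at chr1:161736088-161947364. Its FPKM was 9.50 and 11.9 in NT cells and 14.2 and 12.9 with TPL, and the difference did not pass the test (log2 fold change of 0.33 with an SE of 0.144, adjusted p = 0.112; past the threshold in 2 of 12 alternative fits). TAM cells had 15.1 and 15.9, and 24.4 and 25.3 with TPL, a rise of 1.55-fold (0.63, SE 0.143, adjusted p = 0.0157). That call was lost with GAPDH scaling (adjusted p = 0.120) and without any 1 of the TAM or TAM with TPL libraries (adjusted p between 0.0724 and 0.103).

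ASNS, SESN2, CHAC1 and TRIB3 are known targets of ATF4, of which ASNS and SESN2 rose and TRIB3 fell in both states and CHAC1 rose in TAM cells. ASNS, asparagine synthetase (chr7:97480989-97501854, minus strand), had 22.3 and 17.7 FPKM in NT cells, 41.8 and 38.2 with TPL, 55.1 and 53.7 in TAM cells, and 90.4 and 104 with TPL. It rose 2.14-fold in NT cells (log2 fold change of 1.10 with an SE of 0.163, adjusted p = 0.003) and 1.83-fold in TAM cells (0.87, SE 0.158, adjusted p = 0.00727), and the 4 groups did not overlap. The call in TAM cells was lost without either TAM library or TAM with TPL replicate 2 (adjusted p between 0.053 and 0.0564). The C/EBP-ATF response element of its promoter is shown above in capitals. SESN2, a stress sensor that restrains mTORC1 (chr1:28586029-28609002), had 4.82 and 5.87 FPKM in NT cells, 11.8 and 10.7 with TPL, 7.49 and 6.80 in TAM cells, and 14.2 and 18.3 with TPL. It rose 2.10-fold and 2.20-fold (log2 fold changes 1.07, SE 0.182, adjusted p = 0.00516, and 1.14, SE 0.179, adjusted p = 0.00427), and with GAPDH scaling the call in NT cells was lost (adjusted p = 0.0795).

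CHAC1, an enzyme that degrades glutathione (chr15:41245160-41248710), was the scarcest member in NT cells, with 8 to 90 counts in a library over the series. Its FPKM was 0.69 and 1.03 in NT cells and 3.0 and 1.75 with TPL, and the difference did not pass the test (log2 fold change of 1.42 with an SE of 0.494, adjusted p = 0.060; past the threshold in 2 of 11 alternative fits). TAM cells had 1.50 and 1.60, and 4.10 and 7.01 with TPL, a rise of 3.45-fold (1.79, SE 0.479, adjusted p = 0.0288). That call was lost with GAPDH scaling (adjusted p = 0.0526) and without any 1 of the TAM or TAM with TPL libraries (adjusted p between 0.0513 and 0.165).

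TRIB3, a pseudokinase that is induced by ATF4 and DDIT3 and restrains them, lies at chr20:343479-378203 and showed the largest change of the members. Its FPKM was 11.0 and 11.9 in NT cells and 2.03 and 1.35 with TPL. In TAM cells it was 12.7 and 11.2, and 3.49 and 2.39 with TPL. Every TPL library was lower than every DMSO library. TRIB3 was lower 6.51-fold in NT cells (log2 fold change of -2.70 with an SE of 0.291, adjusted p = 0.000961) and 3.94-fold in TAM cells (-1.98, SE 0.279, adjusted p = 0.00281), in all alternative fits and without any 1 library. The deposited expected counts of TRIB3, HSPA5 and ATF6 were not whole in any of the 8 libraries, and those of ASNS were not whole in 2 (by 0.01, at a tolerance of 0.001). HSPA5 and ATF6 were listed with 1 transcript each, while DDIT3, whole in every library, was listed with 6. Where the fractions came from was not tested, and the values of the genes with fractions may be less certain.

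HSPA5, the main chaperone of the ER (BiP), lies at chr9:127997132-128003661 on the minus strand. Its FPKM was 167.1 and 166.6 in NT cells and 193 and 198 with TPL, which did not pass the test (log2 fold change of 0.22 with an SE of 0.120, adjusted p = 0.185; 0.44 and past the threshold with upper quartile scaling, and -0.14 with GAPDH scaling). TAM cells had 127 and 139, and 232 and 241 with TPL, a rise of 1.73-fold (0.79, SE 0.121, adjusted p = 0.00388) that held in all alternative fits and without any 1 library. HERPUD1, which serves ER-associated degradation (chr16:56966054-56978776), overlapped between TPL and DMSO in both states, with 17.1 and 20.4 against 19.6 and 20.8 FPKM in NT cells and 10.3 and 11.2 against 9.83 and 15.2 FPKM in TAM cells. Its log2 fold changes were 0.11 (SE 0.225, adjusted p = 0.732) and 0.17 (SE 0.230, adjusted p = 0.595).

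The order of the members by FPKM differed between NT cells with DMSO and TAM cells with TPL, which differ in both tamoxifen and TPL. TRIB3 ranked 6 with DMSO and 10 with TPL in both states, while HERPUD1 ranked 5 in both NT groups and 7 in both TAM groups. In NT cells ATF4 (mean 282 FPKM) was followed by HSPA5 (167), XBP1 (72.8), ASNS (20.04), HERPUD1 (18.7), TRIB3 (11.4), ATF6 (10.7), SESN2 (5.35), DDIT3 (1.79) and CHAC1 (0.86), where the libraries of ASNS and HERPUD1 overlapped and those of TRIB3 and ATF6 did too. In TAM cells with TPL the order was ATF4 (337), HSPA5 (237), ASNS (97.2), ATF6 (24.8), XBP1 (17.0), SESN2 (16.2), HERPUD1 (12.5), DDIT3 (7.36), CHAC1 (5.56) and TRIB3 (2.94). There SESN2 (14.2 and 18.3) overlapped with XBP1 (14.9 and 19.2) above it and with HERPUD1 (9.83 and 15.2) below it, and DDIT3 (5.95 and 8.77) overlapped with CHAC1 (4.10 and 7.01).

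No member passed the edgeR test of a difference in TPL effect between NT and TAM cells. At an adjusted p of at most 0.05, 0 were higher and 0 lower, against 0.0885% and 0.0767% of all genes. At an unadjusted p under 0.05, 1 member was higher and 0 lower, against 852 and 947 of 16948 genes. HSPA5 came nearest to the threshold, with a TPL effect higher in TAM cells by 0.57 on the log2 scale (SE 0.170, adjusted p = 0.328), and DESeq2 called it (adjusted p = 0.014). The log2 differences of DDIT3 (-0.96, SE 0.528) and TRIB3 (0.72, SE 0.392) had SEs that leave room for large differences.

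Between TAM and NT cells the members differed less. With DMSO, 1 member was higher (3.46% of all genes) and 1 lower (3.39%). ASNS rose 2.80-fold, from a mean of 20.04 to 54.4 FPKM (log2 fold change of 1.49 with an SE of 0.163, adjusted p = 0.00296), in all alternative fits and without any 1 library. XBP1 fell, with 72.8 FPKM in NT and 43.4 in TAM cells (log2 fold change of -0.73 with an SE of 0.157, adjusted p = 0.040), a call lost with upper quartile scaling (adjusted p = 0.0503), in limma without a filter (adjusted p = 0.0506) and without any 1 of the NT, TAM or TAM with TPL libraries (adjusted p between 0.063 and 0.238). HERPUD1 had 18.7 and 10.7 FPKM without overlap (log2 fold change of -0.78 with an SE of 0.229, adjusted p = 0.105). With TPL present, 0 members were lower in TAM cells (4.21% of all genes). At an unadjusted p under 0.05 in edgeR 3 members were lower, as were 2062 of 16948 genes. DESeq2 called 3 members lower at its adjusted p, against 1260 genes. It also called SESN2 higher, beside the members higher in the main fit (log2 fold change of 0.54, adjusted p = 0.0465), and 1038 of all genes. In the main fit 2 members were higher (2.83% of all genes). These were ASNS (log2 fold change of 1.26 with an SE of 0.160, adjusted p = 0.00572), not past the threshold without TAM with TPL replicate 2 (adjusted p = 0.0559), and ATF6 (0.85, SE 0.143, adjusted p = 0.0166), not past it without either TAM with TPL library (adjusted p = 0.0932 and 0.106) with GAPDH scaling (adjusted p = 0.150) or with only the groups compared in the fit (adjusted p = 0.0639). GAPDH scaling moved the median of all genes by -0.47 with DMSO and -0.23 with TPL, and 1 member was then higher and 4 lower with DMSO, and 1 higher and 1 lower with TPL. Of all 16948 genes, 321 were then higher and 1687 lower with DMSO, and 282 higher and 961 lower with TPL. These comparisons share their libraries with the TPL comparisons.

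**Figure D3:**
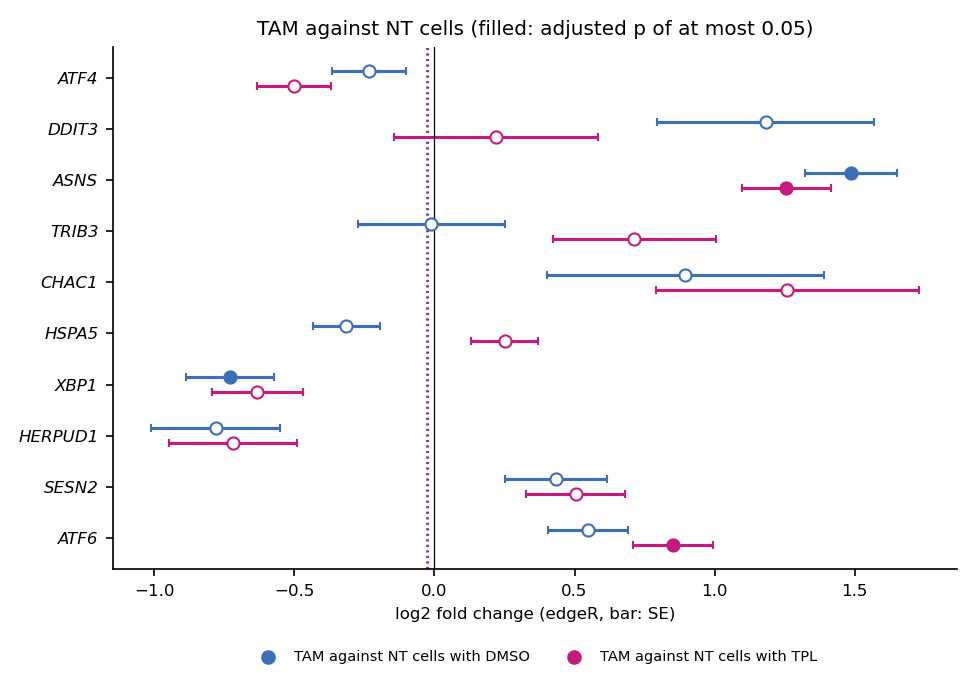
Log2 fold change of TAM against NT cells (horizontal axis) for each member, with DMSO and with TPL, with its SE as bar; filled points passed an adjusted p of at most 0.05 and dotted lines mark the median of all genes. ASNS passed under both treatments, XBP1 with DMSO and ATF6 with TPL.

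RNAPII was listed over the main TSS of all 10 members in NT cells, against 67.2% of 13416 genes with a main TSS. It was listed over 9 members in NT cells with TPL (53.9% of genes), 7 in TAM cells (59.4%) and 8 in TAM cells with TPL (52.8%). Over all genes, 77.3% of the 9019 with a peak in NT cells and 81.1% of the 7966 with one in TAM cells also had one with TPL. Each group has a single peak list with starts and ends and no height or read count, so no error can be given and a width does not measure the amount of RNAPII. The TAM list carries other settings in its peak names than the 3 others, with 0.1 as its q cutoff against a cutoff of 0.02, and its median width was 406 bases against 632 in NT cells, 553 in NT cells with TPL and 455 in TAM cells with TPL. Of its 11056 peak names 4584 end in a letter, against 0 in each of the 3 others. Widths, and the presence or absence of a peak, set against the TAM list therefore cannot be told apart from its settings.

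The member whose RNA fell most was the one without its peak in NT cells with TPL. TRIB3 had a peak of 1475 bases in NT cells (chr20:361358-362832, from 46 bases before to 1428 after the TSS) and no listed peak within 1 kb with TPL. In TAM cells 2 peaks were listed downstream of the TSS, at 136 to 380 and 858 to 1279 bases after it, and none with TPL. XBP1, the other member that fell, kept its peak but it was shorter with TPL, 1065 against 1686 bases in NT cells and 862 against 1339 in TAM cells. Its end in the gene lay 744 against 1258 bases after the TSS in NT cells and 622 against 1051 in TAM cells.

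Among the members whose RNA was higher with TPL in NT cells, the peaks of DDIT3, SESN2 and ATF4 reached farther into the gene there. That of ASNS reached less far, ending 331 bases after the TSS in NT cells and 231 with TPL. The DDIT3 peak over the TSS covered 553 bases in NT cells (chr12:57913979-57914531) and 2879 with TPL (chr12:57911894-57914772), ending 318 and 2403 bases after the TSS. In NT cells a separate peak stood 432 to 1073 bases after the TSS, inside the stretch that was 1 peak with TPL. In TAM cells it covered 467 bases and 1755 with TPL, with a further peak 1529 to 2489 bases after the TSS with TPL. The SESN2 peak covered 545 bases and 1307 with TPL in NT cells, and 337 and 478 in TAM cells. The ATF4 peak, the longest of the members, covered 7191 bases and 10073 with TPL in NT cells, past the end of the gene, and 3658 and 4437 in TAM cells.

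The width ratio with TPL over DMSO in NT cells was 5.21 for DDIT3, 2.40 for SESN2, 1.78 for CHAC1, 1.401 for ATF4, 1.18 for HERPUD1, 0.994 for HSPA5, 0.892 for ASNS, 0.815 for ATF6 and 0.632 for XBP1, beside a median of 0.878 over 6969 genes. In TAM cells it was 3.76 for DDIT3, 2.31 for HSPA5, 1.64 for ATF6, 1.42 for SESN2, 1.21 for ATF4, 0.823 for HERPUD1 and 0.644 for XBP1, beside 1.05 over 6458 genes. DDIT3 had the highest and XBP1 the lowest ratio of the members in both states. The ratios count only the peak over the TSS. For CHAC1 it covered 250 bases in NT cells and 445 with TPL. It began 78 and 263 bases before the TSS and ended 171 and 181 bases after it. In NT cells a separate CHAC1 peak of 243 bases stood upstream, partly inside the stretch covered with TPL. The ratio of CHAC1 therefore does not show more listed coverage. ATF4 also had a separate upstream peak, of 870 bases, in TAM cells. Its peak over the TSS ended 3356 bases after the TSS there and 3349 with TPL, so its ratio in TAM cells does not show more listed coverage either. For DDIT3 in NT cells, separate peaks of 642 and 149 bases on either side of the one over the TSS were not counted. Its ratio there therefore overstates the gain in listed coverage. CHAC1 had no listed peak in TAM cells, where its RNA had 1.50 and 1.60 FPKM against 0.69 and 1.03 in NT cells (adjusted p = 0.385). ASNS, whose RNA was 2.80-fold higher in TAM than in NT cells, had a peak of 473 bases in NT cells, none listed in TAM cells and one of 184 bases in TAM cells with TPL. The absence of CHAC1 and ASNS from the TAM list cannot be told apart from the other settings of that list.

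**Figure D4:**
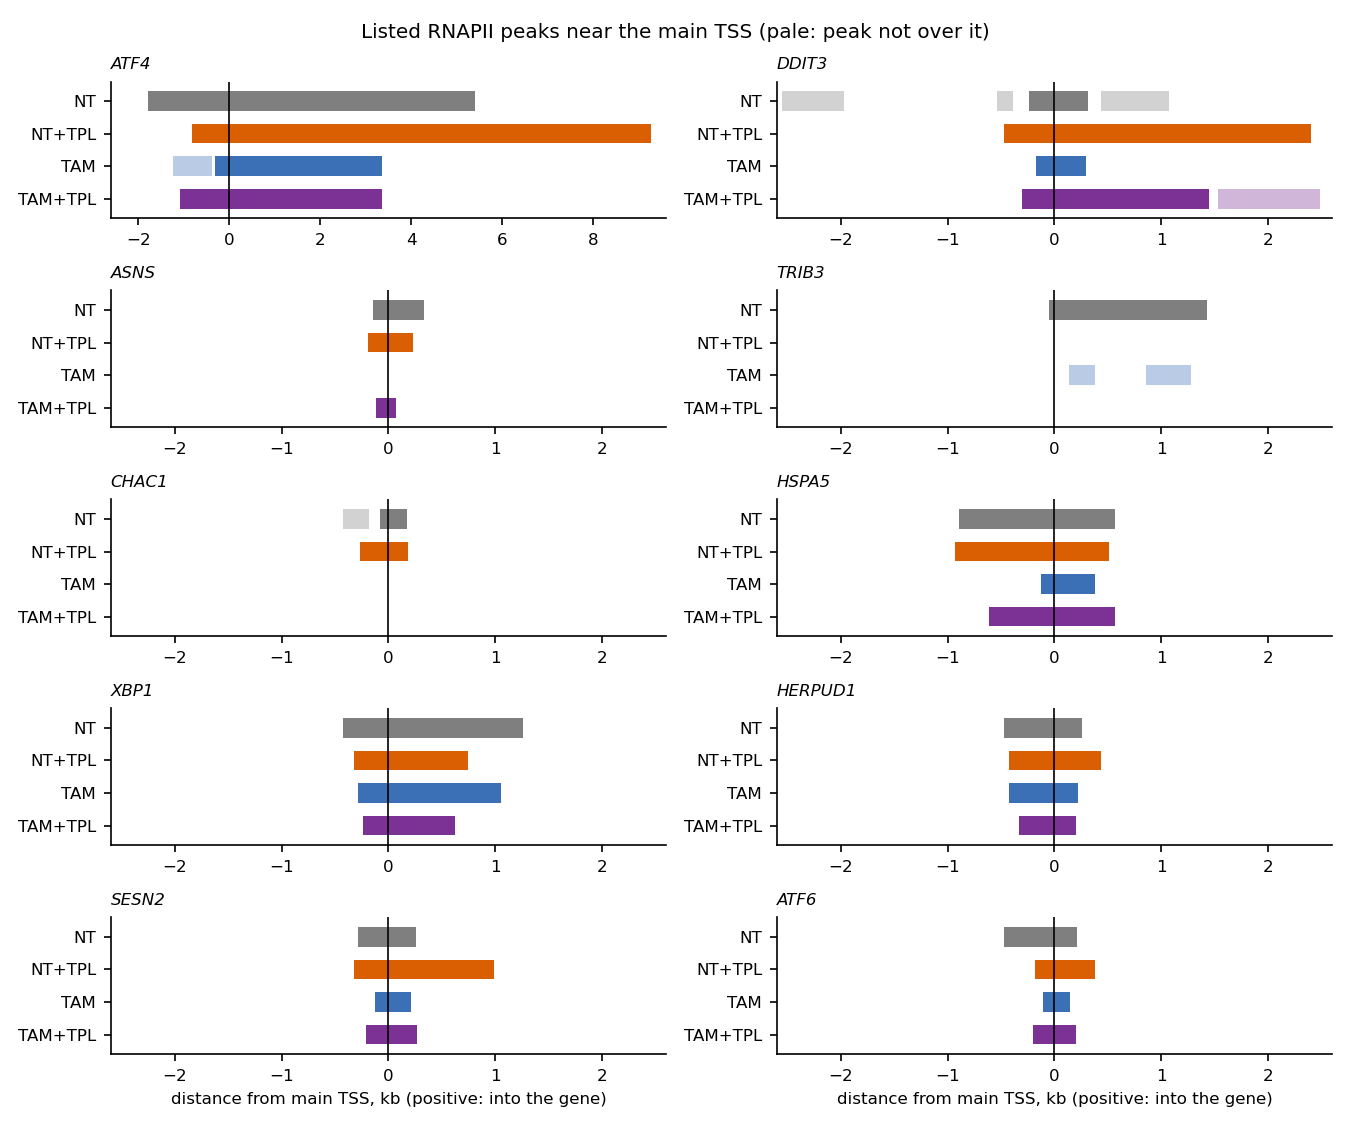
Extent of listed RNAPII peaks (bars) within about 2 kb of the main TSS of each member in the 4 groups, by distance from the TSS in kb (horizontal axis, positive into the gene; ATF4 has a longer axis). Pale bars are peaks that do not cover the main TSS. The DDIT3 bar with TPL reaches 2403 bases into the gene in NT cells, and TRIB3 has no bar with TPL.

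The other genes of the pathway were taken as 7 lists of 115 genes, of which 113 were tested. With TPL 20 rose and 29 fell in NT cells (17.2% and 19.8% of all genes), and 26 rose and 18 fell in TAM cells (14.3% and 18.6% of all genes). The counts of each list below stand against these shares of all genes, and those under other scalings against the all-gene counts given above for each scaling. The medians of the lists stand against medians over every tested gene of 0.0864 (NT cells) and 0.0485 (TAM cells) on the log2 scale. Of 15 genes for eIF2 kinases and eIF2 control, 0 rose in either state, while 6 fell in NT and 5 in TAM cells (median log2 fold change -0.32 and -0.52). With GAPDH scaling 9 and 5 fell, and with upper quartile scaling 3 and 3. PPP1R15A (GADD34), the subunit that brings a phosphatase to eIF2 and ends the response, had 135 and 121 FPKM in NT cells and 55.3 and 44.6 with TPL, and 161 and 135 in TAM cells and 47.8 and 43.98 with TPL. It was lower 2.58-fold (log2 fold change of -1.36 with an SE of 0.155, adjusted p = 0.00113) and 3.33-fold (-1.74, SE 0.156, adjusted p = 0.000607). EIF2AK2 (PKR), an eIF2 kinase activated by double-stranded RNA, was lower 2.34-fold and 1.67-fold (adjusted p = 0.00104 and 0.00674, and 0.0529 in TAM cells without TAM with TPL replicate 2). EIF2AK3 (PERK) was at or below 1.1 FPKM in every library and listed at 0 in 3 of them, and no fold is given.

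Of 8 ER stress sensors and genes of their processing, 1 rose in NT and 2 in TAM cells and 0 fell (median 0.13 and 0.26). ERN1 (IRE1) had 0.49 and 0.98 FPKM in NT cells and 9.43 and 2.77 with TPL, and 1.12 and 0.74 in TAM cells and 10.6 and 11.99 with TPL. It rose 8.15-fold (log2 fold change of 3.03 with an SE of 0.604, adjusted p = 0.0093) and 11.7-fold (3.55, SE 0.600, adjusted p = 0.00563), while the XBP1 mRNA that IRE1 splices fell. Without NT with TPL replicate 1 the log2 fold change in NT cells was 1.95, and without NT with TPL replicate 2 it was 3.66. Over the alternative fits it was between 1.87 and 3.25 in NT cells and between 2.68 and 3.78 in TAM cells. The calls were lost without NT replicate 1 (adjusted p = 0.0581) and without TAM replicate 2 (adjusted p = 0.0504), respectively.

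Of 14 partners and regulators of ATF4, 2 rose and 7 fell in each state (median -1.41 and -0.95). FOS, a bZIP factor of the immediate early response, had 503 and 576 FPKM in NT cells and 33.6 and 26.7 with TPL, and 555 and 454 in TAM cells and 21.8 and 26.8 with TPL. Its log2 fold changes were -4.17 and -4.42 (adjusted p = 0.000178 and 0.000234). DDIT4 (REDD1), an mTORC1 inhibitor and stress gene, was lower 14.8-fold and 7.85-fold (adjusted p = 0.000274 and 0.000529). ATF3, a bZIP target of ATF4, had 97.9 and 82.9 FPKM in NT cells and 30.7 and 34.3 with TPL, 3.01-fold lower (adjusted p = 0.00266), and 58.8 and 44.7 in TAM cells and 28.1 and 40.9 with TPL (log2 fold change of -0.66 with an SE of 0.223, adjusted p = 0.0594; past the threshold in 2 of 12 alternative fits). SESN3, a sestrin like SESN2, rose from at most 0.19 FPKM, by 3.97 and 4.14 on the log2 scale (adjusted p = 0.0041 and 0.00389). The size is poorly fixed at so low a level, since it was 3.40 in TAM cells without TAM replicate 1 and 5.68 without TAM replicate 2, and 1.29 and 1.47 in NT and TAM cells in limma on log2(FPKM + 1). NUPR1, a stress-induced chromatin protein, rose 2.07-fold and 1.92-fold (adjusted p = 0.0182 and 0.0345). The NUPR1 calls were lost without NT replicate 2 or NT with TPL replicate 1 in NT cells (adjusted p = 0.0909 and 0.071) or with only the groups compared in the fit (adjusted p = 0.0583), and without any 1 of the TAM or TAM with TPL libraries in TAM cells (adjusted p between 0.104 and 0.147).

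Of 28 genes of amino acid supply and tRNA charging, 7 rose and 7 fell in NT cells, and 13 rose and 3 fell in TAM cells (median -0.12 and 0.57). With GAPDH scaling 5 rose and 10 fell in NT cells and 7 rose and 3 fell in TAM cells, and with upper quartile scaling 9 rose and 7 fell, and 19 rose and 2 fell. CTH, which makes cysteine from cystathionine, rose 6.07-fold and 7.01-fold from at most 0.81 FPKM (adjusted p = 0.00973 and 0.0083), and PCK2, the mitochondrial PEP carboxykinase, rose 3.51-fold and 2.31-fold (adjusted p = 0.00585 and 0.0213). XPOT, the nuclear exporter of tRNA, was lower 4.57-fold and 2.20-fold (adjusted p = 0.00293 and 0.0304), and TARS1, threonyl-tRNA synthetase, 2.601-fold and 2.35-fold (adjusted p = 0.000921 and 0.00148). Without NT replicate 2 the log2 fold change of CTH in NT cells was 3.42, a larger value than with all libraries. In TAM cells the call of CTH was lost without TAM replicate 2 (adjusted p = 0.0624), and those of PCK2 and XPOT without any 1 of the TAM or TAM with TPL libraries (adjusted p between 0.0501 and 0.169). That of XPOT was also lost with upper quartile scaling (adjusted p = 0.0535) and in limma without a filter (adjusted p = 0.0581). In this list 1 gene, SLC6A9, a glycine transporter named after its values were seen, differed between NT and TAM cells in its TPL effect. Its FPKM was 11.97 and 12.61 in NT cells and 2.85 and 1.87 with TPL, and 7.93 and 6.26 in TAM cells and 11.5 and 11.7 with TPL. It was lower 5.21-fold in NT cells (adjusted p = 0.000662) and had a log2 fold change of 0.65 in TAM cells (SE 0.211, adjusted p = 0.0543; past the threshold in 5 of 12 alternative fits), a difference of 3.03 (SE 0.310, adjusted p = 0.0378). The call on the difference was lost with GAPDH scaling (adjusted p = 0.053) and without any 1 of the NT, TAM or TAM with TPL libraries (adjusted p between 0.125 and 0.173).

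Of 13 secreted and stress targets tested, 5 rose and 5 fell in NT cells, and 3 rose and 4 fell in TAM cells (median 0.53 and 0.32), and with upper quartile scaling 6 rose and 3 fell in TAM cells. GDF15, a secreted stress cytokine, had 1.02 and 1.23 FPKM in NT cells and 20.2 and 11.6 with TPL, and 6.04 and 4.47 in TAM cells and 14.9 and 11.0 with TPL. It rose 13.8-fold and 2.38-fold (adjusted p = 0.000811 and 0.0298), the latter call being lost without any 1 of the TAM or TAM with TPL libraries (adjusted p between 0.0613 and 0.161). DDR2, a collagen receptor, rose from at most 0.62 FPKM, by 5.54 and 5.18 on the log2 scale (adjusted p = 0.000727 and 0.000969). In NT cells the size was 4.79 without NT replicate 1 and 7.16 without NT replicate 2, and over the alternative fits it was between 3.74 and 5.77. STC2, a secreted glycoprotein induced by ER stress, was lower 4.77-fold and 2.72-fold (adjusted p = 0.000528 and 0.00239), as was PPP1R15A, which is on this list too.

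Of 18 ER chaperones and folding enzymes, 4 rose and 1 fell in NT cells, and 5 rose and 0 fell in TAM cells (median 0.23 and 0.32). With GAPDH scaling 1 rose and 2 fell, and 2 rose and 0 fell, and with upper quartile scaling 9 and 8 rose and 0 fell. ERO1B, an oxidase for disulphide bonds, rose 2.25-fold and 3.54-fold (adjusted p = 0.00617 and 0.00142), and DNAJC3, a co-chaperone of BiP, rose 1.92-fold and 2.70-fold (adjusted p = 0.00479 and 0.0012, and 0.109 in NT cells with GAPDH scaling). DNAJB9, an IRE1 and XBP1 target, did not pass the test in either state (log2 fold change of 0.89 with an SE of 0.354, adjusted p = 0.0887, and 0.79, SE 0.360, adjusted p = 0.134). In NT cells it passed in 4 of 12 alternative fits, among them upper quartile scaling (adjusted p = 0.0415), at least 10 counts in every library (adjusted p = 0.031) and DESeq2 (adjusted p = 0.0356). Of 19 genes of ER-associated degradation and the translocon tested, 1 rose in each state, and 4 fell in NT and 0 in TAM cells (median 0.02 and 0.14), while upper quartile scaling gave 5 and 4 that rose and GAPDH scaling 0. The one that rose, OS9, a lectin that hands misfolded glycoproteins to degradation, was higher 1.81-fold and 1.57-fold (adjusted p = 0.00426 and 0.0128), not past the threshold with GAPDH scaling (adjusted p = 0.07 and 0.0666) or, in TAM cells, without TAM replicate 2 or either TAM with TPL library (adjusted p between 0.0653 and 0.0983).

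**Figure D5:**
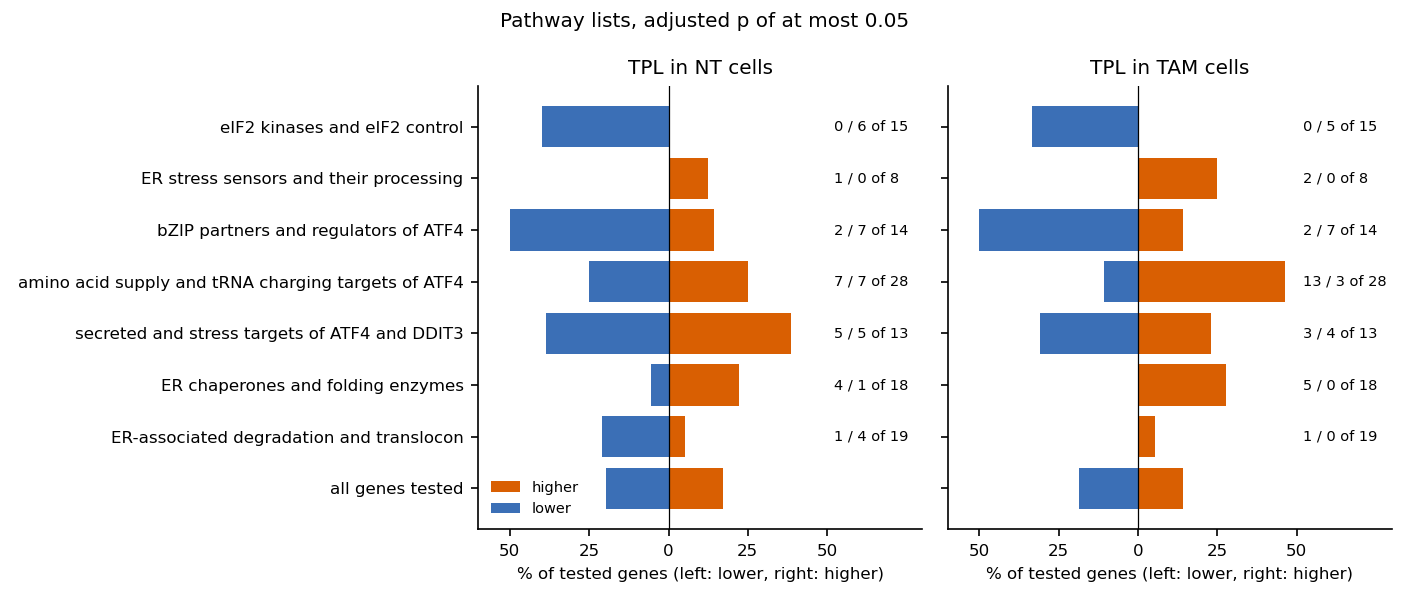
Share of the tested genes of each pathway list that was higher (right) or lower (left) with TPL at an adjusted p of at most 0.05, in NT and TAM cells, with the counts higher / lower of tested at the side and all genes in the lowest row. The list of amino acid supply and tRNA charging had 7 higher and 7 lower of 28 in NT cells, and 13 higher and 3 lower in TAM cells.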

How the data were processed

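Of 18 samples, 8 were RNA-Seq libraries, 8 RNAPII ChIP-Seq samples and 2 inputs. From poly-A RNA, the authors aligned reads with Bowtie2 and had RSEM estimate, per gene, the deposited expected counts (not normalized) and FPKM. The deposited peak intervals were made by the authors over input on hg19 with MACS, version 1.4.2 in the submitters' processing notes; how replicates were combined is not given in the sources used here. Expected counts were rounded and genes without a read taken as 0. They were fitted with edgeR 4.0.16 in R 4.3.3 (TMM, filter on low counts by group, 4 groups in 1 fit, 16948 genes). SEs were derived from the fold change and the F statistic. FPKM levels were not tested in the main fit. With 2 libraries a group, described as biological replicates, p-values measure the spread between these libraries, and their number limits the precision.

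Members, pathway lists and marker lists were chosen with earlier results of these data known. Named pathway genes were at most 2 top risers and 2 top fallers of each list, ranked by the mean of both TPL log2 fold changes. They had to pass in both states in the same direction, with a mean of at least 1 FPKM and TPL libraries on one side of the DMSO libraries. ATF3, PPP1R15A, DNAJB9 and EIF2AK3 were named whatever they did. The main TSS of a gene is that of its GENCODE v44 canonical transcript on GRCh37, from which promoter bases were read. Alternatives used DESeq2 1.42.0, limma 3.58.1 with pseudocounts of 1 and 0.1, other scalings and filters, and each library left out. Scripts were tested on simulated data. Peak positions count from 1. The promoter sequence of TRIB3 is not reported here.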

Additional observations from a re-analysis of the deposited data

Results flagged for a closer look

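Among the members, no difference in TPL effect between NT and TAM cells passed the test in edgeR. Among the other pathway genes, SLC6A9 differed by the test of the difference (3.03 on the log2 scale, adjusted p = 0.0378), lower with TPL in both NT libraries and higher in both TAM libraries. That call held in 2 of 8 fits without 1 library (without an NT with TPL library), with the difference between 2.77 and 3.33 over all 8.

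In 6 further genes the TPL libraries lay below the DMSO libraries in NT cells and above them in TAM cells, and the difference did not pass the adjusted threshold. It was 0.996 for AARS1 (adjusted p = 0.141), 1.298 for PSAT1 (adjusted p = 0.201), 1.41 for ALDH1L2 (adjusted p = 0.298), 0.82 for MARS1 (adjusted p = 0.303), 0.78 for HYOU1 (adjusted p = 0.285) and 0.22 for SARS1 (adjusted p = 0.696). PSAT1, a serine synthesis enzyme, had 17.4 and 19.0 FPKM in NT cells and 12.6 and 16.1 with TPL, and 31.7 and 37.5 in TAM cells and 61.5 and 75.2 with TPL.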

How the results depend on the processing

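Replicate numbers gave no sign of pairing (correlation of replicate deviations between groups from -0.14 to 0.05), and with a replicate block the members lower in TAM against NT cells with DMSO were 0, those higher with TPL were 4 in NT and 5 in TAM cells, and those lower were 2 in each. With the block, the calls of ATF4 with TPL in TAM cells (adjusted p = 0.0683), XBP1 in TAM against NT cells with DMSO (adjusted p = 0.074) and SLC6A9 for the difference (adjusted p = 0.0953) were not past the threshold, and DNAJB9 with TPL in NT cells was (adjusted p = 0.0405). With 2 libraries a group, leaving 1 out assumes that the lone library varies like the other groups. The cause of each change below was not tested.

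Beside the counts and shares of all genes given above for these settings, the members higher with TPL in NT cells were 7 with upper quartile scaling, 2 with GAPDH scaling and 0 under the stricter thresholds of the study. In TAM cells they were 3 with GAPDH scaling and 0 under the stricter thresholds, where those lower were also 0, and from 2 to 6 with 1 library left out (2 without TAM replicate 1, TAM replicate 2 or TAM with TPL replicate 2, 3 without TAM with TPL replicate 1). The members lower with TPL in NT cells, TRIB3 and XBP1, stayed at 2 in all settings run.

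For TAM against NT cells with DMSO, the members higher were 2 in DESeq2 and 0 under the stricter thresholds. Those lower were 0 with upper quartile scaling, in limma without a filter on low values and under the stricter thresholds, 4 with GAPDH scaling, 2 in DESeq2, and from 0 to 1 with 1 library left out. With TPL present, those higher were 1 with GAPDH scaling, 1 with only the groups compared in the fit, 0 under the stricter thresholds and from 0 to 2 with 1 library left out. Those lower were 1 with GAPDH scaling, 1 with at least 10 counts in every library and 3 in DESeq2, which also called SESN2 higher. For the difference between the TPL effects, DESeq2 called 1 member higher, as it did 274 of 16948 genes. For TAM against NT cells, DESeq2 called 1042 of all genes higher and 1024 lower with DMSO, and 1038 higher and 1260 lower with TPL.

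Directions turned only for members that had not passed the test. With GAPDH scaling the log2 fold change with TPL in NT cells was -0.14 for HSPA5, -0.26 for HERPUD1 and -0.046 for ATF6, that of SESN2 in TAM against NT cells was -0.047, and the difference for ASNS was 0.0095. TRIB3 in TAM against NT cells with DMSO (-0.01) was 0.013 with DESeq2 size factors, 0.015 with only the groups compared, 0.014 in DESeq2, 0.024 with upper quartile scaling, 0.061 in limma at a pseudocount of 1 with and without a filter, and 0.066 at 0.1. With 1 library left out, it ranged from -0.13 to 0.093, HERPUD1 with TPL from -0.024 to 0.23 in NT cells and -0.17 to 0.45 in TAM cells, and DDIT3 in TAM against NT cells with TPL from -0.043 to 0.49. The difference ranged from -0.11 to 0.74 for CHAC1, -0.089 to 0.26 for XBP1, -0.28 to 0.33 for HERPUD1 and -0.12 to 0.23 for SESN2.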
